A study of Homo sapiens with 8 samples.

Results

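The genes described here encode cytoplasmic kinases and phosphatases that could carry or oppose a signal from an immunoreceptor tyrosine-based inhibitory motif, or ITIM, on the inner side of a Siglec receptor. They are PTPN6, PTPN11, PTPN18, INPP5D, SYK, CSK, LYN, FYN, YES1 and SRC, 10 genes of the 63816 gene entries of an expression table, each found in it by its symbol. The table covers 8 RNA-Seq samples labelled Caco-2, an established line from a human colorectal adenocarcinoma, although several marker levels, given at the end, go against that label. The control group has 4 samples of cells with pcDNA3.1 alone (empty vector). The Siglec-XII group has 4 samples of cells with pcDNA3.1 holding full-length human SIGLEC12, the gene of Siglec-XII. Both groups had been transfected with Lipofectamine, had been kept under G418 and share the Caco-2 background, which does not make Siglec-XII of its own. How many transfections or clones stand behind each group is not stated in the sources used here, so a difference between the selected populations and an effect of Siglec-XII cannot be told apart. The labels number 4 samples a group, the series text speaks of 3 cultures and the methods of the study of technical replicate libraries, so p-values measure the spread between these samples, which may be technical.

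As background, an ITIM works only once its tyrosine carries a phosphate. SRC family kinases place that phosphate, and the phosphotyrosine then docks the SH2 domains of the phosphatases SHP-1 (PTPN6) and SHP-2 (PTPN11), or of the inositol phosphatase SHIP1 (INPP5D). CSK holds SRC family kinases in check by phosphorylating a tyrosine in their C-terminal tail, and SYK, the kinase of activating immune receptors, is one of the enzymes whose signals ITIM-bound phosphatases oppose in blood cells. In epithelial cells SHP-2 is better known as a positive link from growth factor receptors to the RAS and ERK pathway.

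The tyrosines around which these enzymes work can be read from the coding sequence, and 5 stretches of 30 bases are shown because they hold the docking sites on the receptor and the switch on the kinases. They were taken from the GRCh37 genome with GENCODE annotation lifted to that build, run 5′ to 3′ on the coding strand, and carry the tyrosine codon in capitals. The membrane-proximal ITIM of SIGLEC12 lies at chr19:51994973-51995002 on the minus strand, with its tyrosine at residue 565 of 595. The ITIM-like stretch lies closer to the C-terminus, at chr19:51994904-51994933 on the minus strand, with its tyrosine at residue 588.
SIGLEC12 ITIM: ggagagatccagTATgcatccctcagcttc
SIGLEC12 ITIM-like: atcggctatgagTACtccgagatcaacatc
The regulatory tails are the last 10 codons before the stop codon. They lie at chr20:36031750-36031779 on the plus strand for SRC (tyrosine 530 of 536 residues), at chr18:724427-724456 on the minus strand for YES1 (tyrosine 537 of 543) and at chr6:111982945-111982974 on the minus strand for FYN (tyrosine 531 of 537).
SRC tail: gagccccagTACcagcccggggagaacctc
YES1 tail: gagccacagTACcagccaggagaaaattta
FYN tail: gagccccagTACcaacctggtgaaaacctg
The bases differ between the kinases, while the residues they code are the same at 10 of 10 positions in all 3.

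Levels are given as TPM, an abundance of transcripts that is corrected for their length and scaled to the same total in each sample and so can be compared between genes, or as log2(TPM + 1), the scale of the deposited table. The read number behind each value is unknown, because each column is scaled to 1000000 TPM. The depth named in the labels is about 25 to 40 (in units of 1000000 reads) a sample, and 15513 to 15934 entries reached 1 TPM. SIGLEC12 (ENSG00000254521, chr19:51994481-52005054), the transfected gene, was at 0.122, 0.0853, 0.0705 and 0.0399 TPM in empty vector replicates 1 to 4, and at 1635, 1582, 1734 and 1716 TPM in Siglec-XII replicates 1 to 4. The levels were 0.11 ± 0.05 and 10.70 ± 0.06 log2(TPM + 1) (SD, n = 4 each), a difference of 10.59 (exact permutation test, two-sided p = 0.0286, the smallest value that 4 against 4 samples allow). Whether the length used for SIGLEC12 was that of the transgene's RNA is not stated, so its TPM is less secure as a level per length than that of the other genes.

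Of the 10 genes 9 were at 1 TPM or more in all 8 samples and 1 was under it in all, as the plot of levels in the 8 samples shows. PTPN11 was the most abundant, at 138 to 176 TPM, followed by YES1 at 85.3 to 98.6 TPM. SRC and LYN came next and exchanged places between samples, SRC being the higher in 6 of 8. CSK lay below LYN in 8 of 8 samples. FYN, PTPN18 and PTPN6 formed a group between 21.7 and 34.8 TPM in which FYN exceeded PTPN18 in 5 of 8 samples and PTPN18 exceeded PTPN6 in 7 of 8. SYK followed at 7.56 to 12.3 TPM, and INPP5D did not pass 0.0734 TPM in any sample. These orders are descriptions and were not tested.

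**Figure D1:**
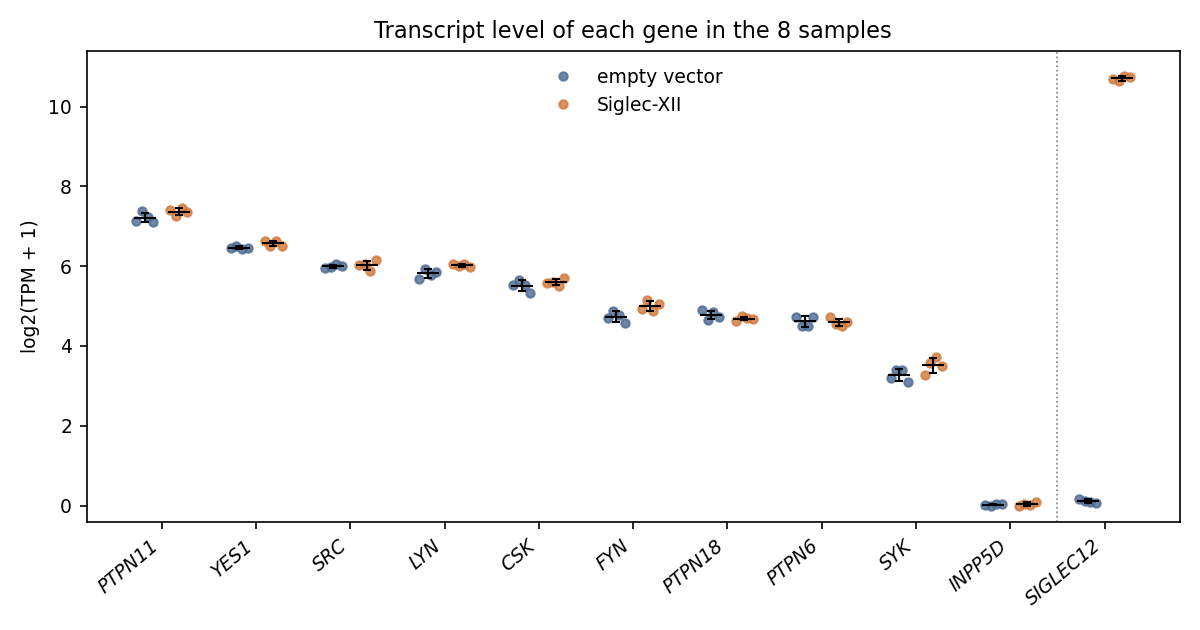
Level of each gene as log2(TPM + 1), 1 point per sample, with the mean and SD of the 4 samples of each group in black, empty vector left and Siglec-XII right of each name. From PTPN11 to INPP5D the groups lie close together, while SIGLEC12, shown at the right for scale, goes from 0.11 to 10.70.

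No gene of the 9 that could be tested changed at an adjusted p under 0.05 (limma with Benjamini-Hochberg adjustment), where 101 of 15590 entries, 0.648%, did. That count moved to 49 without empty vector replicate 3 and to 159 without empty vector replicate 2. Entries were tested when they reached 1 TPM in at least 4 samples, which left out only INPP5D. At an unadjusted p under 0.05, YES1, FYN and LYN stood higher in the Siglec-XII samples, 3 of 9 genes, against 13.9% of all entries in that direction. The difference was above 0 for 7 of 9 genes and for 68.1% of all entries, and its median was 0.11 log2 units for the 9 genes and 0.07 for all. The whole table thus leaned toward the Siglec-XII samples, and that shift fell to 0.01 once samples were quantile normalized or brought to equal upper quartiles, so each difference below is to be read against it. The plot of differences with their intervals shows how small the values are.

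**Figure D2:**
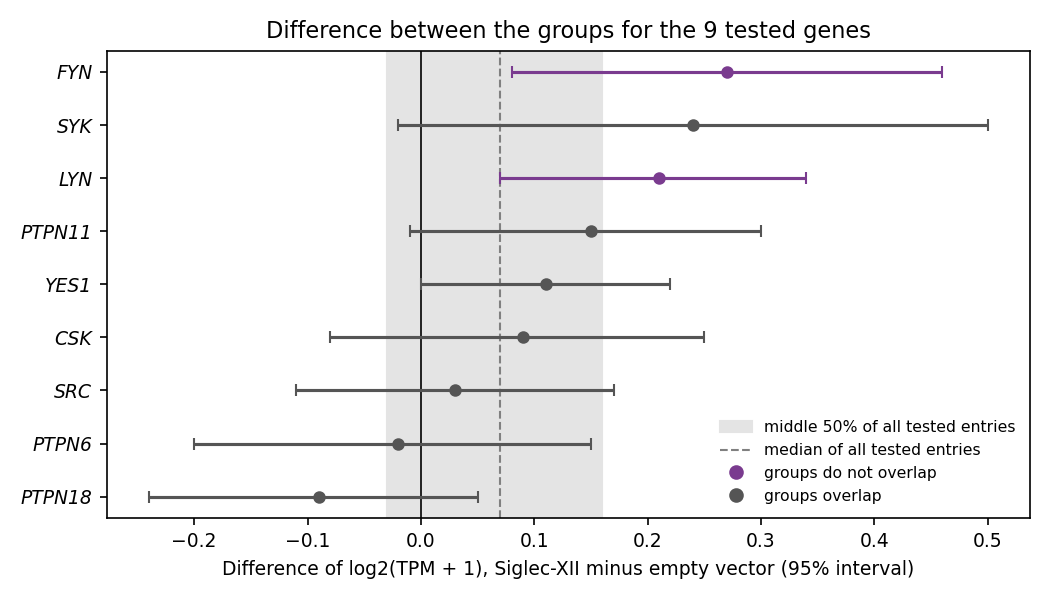
Difference of log2(TPM + 1), Siglec-XII minus empty vector, with its 95% interval from limma for the 9 tested genes, coloured by whether the 4 values of the groups overlap. The dashed line is the median of all tested entries (0.07) and the grey band their middle 50% (-0.03 to 0.16). FYN and LYN are the genes whose groups do not overlap, and neither passed the adjusted threshold.

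The phosphatases come first, since SHP-1, SHP-2 and SHIP1 are those that dock on ITIMs. PTPN11 (ENSG00000179295, chr12:112856155-112947722) measured 140, 166, 149 and 138 TPM in empty vector replicates 1 to 4 and 168, 152, 176 and 162 TPM in Siglec-XII replicates 1 to 4. The Siglec-XII samples were mostly the higher ones, but the groups overlapped, since empty vector replicate 2 lay among them. On the log2 scale PTPN11 went from 7.22 ± 0.12 to 7.37 ± 0.09, a difference of 0.15 with a 95% interval of -0.01 to 0.30 (adjusted p = 0.321). As a ratio of TPM + 1 that interval is 0.996 to 1.23. The gene overlaps RPL6, a ribosomal protein gene, on the opposite strand, and 1 of its 16 annotated transcripts shares 111 exon bases with 1 of 13 RPL6 transcripts. RPL6 stood at 11.24 to 11.47 log2(TPM + 1), with a difference of -0.10 (adjusted p = 0.315). It was lower in every Siglec-XII sample than in every empty vector sample, as were 1.68% of all tested entries. Reads of the shared bases may be split between PTPN11 and RPL6, which was not tested. Whether the quantification used strand is not stated.

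PTPN6 (ENSG00000111679, chr12:7055631-7070479) encodes SHP-1, the ITIM phosphatase best known from blood cells, and was at 25.5, 21.7, 21.8 and 25.4 TPM with the empty vector and 25.3, 22.4, 21.9 and 23.2 TPM with Siglec-XII. The groups covered nearly the same range. The difference was -0.02 log2 units, with a 95% interval of -0.20 to 0.15 (adjusted p = 0.915), and the direction was not stable to leaving out single samples. SHP-2 transcripts outnumbered those of SHP-1 in every sample, by 6.37 ± 1.09 times with the empty vector and 7.11 ± 0.649 times with Siglec-XII (SD, n = 4 each), over a range of 5.44 to 8.07. In the Siglec-XII samples SIGLEC12 transcripts were 8.89 ± 0.364 times (8.45 to 9.29) as many as those of SHP-1 and SHP-2 together. That ratio compares RNA and not the proteins.

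PTPN18 (ENSG00000072135, chr2:131113618-131132978), a phosphatase of the PEST family that acts on the receptor HER2, was one of the 2 genes below 0, with PTPN6. Its TPM was 28.6, 24.3, 27.9 and 25.5 with the empty vector and 23.7, 25.7, 25.0 and 24.7 with Siglec-XII. Empty vector replicates 1 and 3 were high and the other samples of both groups were alike. The levels were 4.78 ± 0.11 and 4.69 ± 0.05 log2(TPM + 1), a difference of -0.09 (95% interval -0.24 to 0.05, adjusted p = 0.505).

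INPP5D (ENSG00000168918, chr2:233924677-234116549) encodes SHIP1, an inositol phosphatase of blood cells. Its TPM was 0.0105, 0, 0.0361 and 0.0228 with the empty vector and 0, 0.028, 0.0112 and 0.0734 with Siglec-XII, so that both groups were at or near 0. The symbol stands on 2 entries with the same values. Its relative SHIP2 (INPPL1, ENSG00000165458), which shares the lipid substrate and is made in most tissues, was at 60.2 to 88.5 TPM, with a difference of 0.19 (adjusted p = 0.353).

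Among the kinases that phosphorylate ITIMs, LYN and FYN were the genes whose groups did not overlap. Among all tested entries, 9.17% were higher in every Siglec-XII sample than in every empty vector sample, and 1.68% were lower in every one. LYN (ENSG00000254087, chr8:56792394-56926728), the kinase that phosphorylates ITIMs in B cells, was at 50.7, 60.2, 53.9 and 57.2 TPM with the empty vector and 65.7, 62.9, 65.9 and 61.8 TPM with Siglec-XII. The gap between the groups was narrow, from 60.2 to 61.8 TPM. The log2 level was 5.82 ± 0.11 and 6.02 ± 0.05, a difference of 0.21 with a 95% interval of 0.07 to 0.34 (adjusted p = 0.151).

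FYN (ENSG00000010810, chr6:111981535-112194655), known for its work beside T cell receptors and at cell adhesions, had the largest difference of the 9 genes. It was at 25.1, 28.4, 26.5 and 22.7 TPM with the empty vector and 29.6, 34.8, 28.5 and 32.0 TPM with Siglec-XII. The highest empty vector sample and the lowest Siglec-XII sample lay at 28.4 and 28.5 TPM, so the groups were apart by next to nothing. The level was 4.73 ± 0.13 and 5.01 ± 0.12 log2(TPM + 1), a difference of 0.27 with a 95% interval of 0.08 to 0.46 (adjusted p = 0.173). Of all tested entries 12% differed by more than FYN in either direction and 21.3% by more than LYN. Under quantile normalization, with equal upper quartiles, and with mitochondrially encoded and the 100 most abundant entries left out, the groups overlapped for both genes. Their differences in those settings were 0.20 to 0.23 for FYN and 0.14 to 0.16 for LYN.

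YES1 (ENSG00000176105, chr18:721588-812547), a close relative of SRC, was at 86.6, 90.1, 85.3 and 86.6 TPM with the empty vector and 98.6, 90.0, 97.7 and 90.3 TPM with Siglec-XII. Siglec-XII replicates 1 and 3 were high, and the other 2 lay beside empty vector replicate 2. The difference was 0.11 log2 units (95% interval 0.00 to 0.22, adjusted p = 0.292). SRC itself (ENSG00000197122, chr20:35973088-36034453) was at 60.6, 61.8, 65.0 and 63.2 TPM with the empty vector and 64.5, 65.3, 57.3 and 69.8 TPM with Siglec-XII. The Siglec-XII samples held both the lowest and the highest value. Its difference was 0.03 (95% interval -0.11 to 0.17, adjusted p = 0.839), and it turned below 0 under each of the 3 other scalings of the samples.

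Set together, the pool of 10 SRC family kinases summed here was made up mostly of the same 4 in both groups, as the plot of shares shows. These 10 transcripts summed to 232 ± 7.31 TPM with the empty vector and 255 ± 3.93 TPM with Siglec-XII (SD, n = 4 each), and the sums, 224 to 242 against 250 to 260, did not overlap. The sum of YES1, SRC, LYN and FYN alone was higher by 22.6 TPM, by 11.9 TPM after quantile normalization and by 12.4 TPM with equal upper quartiles. The groups did not overlap for this sum in any of these settings. Under quantile normalization and equal upper quartiles they overlapped for each of the 4 genes taken singly. How often comparable sums of other entries do not overlap was not tested. This sum under other scalings was added after the data were seen. YES1 made up 37.6 ± 0.81% and 37 ± 1.83% of the pool, SRC 27.0 ± 1.04% and 25.2 ± 1.87%, LYN 23.9 ± 1.14% and 25.2 ± 0.882%, and FYN 11.1 ± 0.838% and 12.3 ± 1.1%. The group ranges overlapped for each of these shares. Each of the other 6 kinases was under 1 TPM in every sample, and together they held 0.466 ± 0.0613% and 0.416 ± 0.102%. FRK, an epithelial kinase, was at 0.349 to 0.537 TPM, PTK6, also called BRK, at 0.206 to 0.473 TPM, and LCK, the T cell kinase, at 0 to 0.49 TPM.

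**Figure D3:**
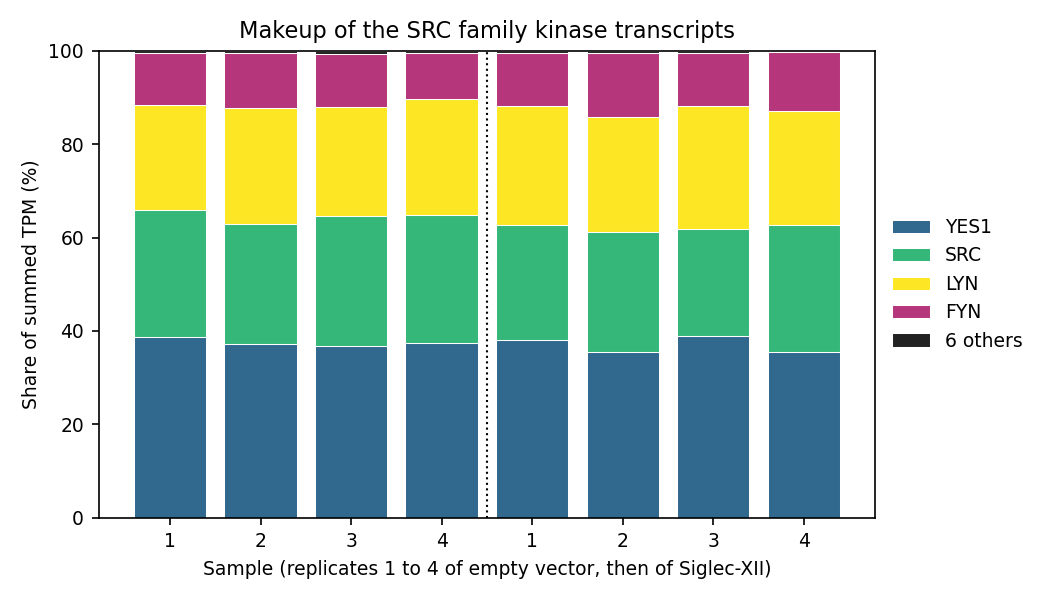
Share of each SRC family kinase in the summed TPM of 10 such kinases (%), 1 bar per sample, empty vector replicates 1 to 4 left and Siglec-XII replicates 1 to 4 right of the dotted line. YES1, SRC, LYN and FYN fill the bars in all 8 samples, and the 6 other kinases together hold at most 0.556%.

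CSK (ENSG00000103653, chr15:75074421-75095538), which phosphorylates the tail tyrosines printed above, was at 45.0, 49.2, 45.6 and 39.2 TPM with the empty vector and 46.9, 47.7, 44.5 and 51.0 TPM with Siglec-XII. The groups overlapped, with the lowest value in empty vector replicate 4. The difference was 0.09 (95% interval -0.08 to 0.25, adjusted p = 0.592). SRC family transcripts were 5.22 ± 0.451 times as many as those of CSK with the empty vector and 5.37 ± 0.282 times with Siglec-XII.

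SYK (ENSG00000165025, chr9:93564069-93660831) had the widest interval of the 9 genes and the lowest level. It was at 8.23, 9.46, 9.55 and 7.56 TPM with the empty vector and 8.64, 10.9, 12.3 and 10.2 TPM with Siglec-XII. Siglec-XII replicate 1 lay among the empty vector samples and the other 3 lay above them. The difference was 0.24 log2 units (95% interval -0.02 to 0.50, adjusted p = 0.334). Empty vector replicate 4 held the lowest value of 4 of the 9 genes and Siglec-XII replicate 3 the highest of 3.

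Genes that work around these enzymes were described from lists chosen with earlier results of these data known. The lists held 80 genes, of which 41 could be tested. Of these 41, 0 passed the adjusted threshold in limma, where 0.648% of all entries did. At an unadjusted p under 0.05, 11 were higher with Siglec-XII, against 13.9% of all entries, and 1 was lower. The share of all entries lower at that p was not taken. The difference was above 0 for 36 of 41 and for 68.1% of all entries, and its median was 0.13 against 0.07. In 5 of 41 the groups did not overlap, all higher, against 9.17% of all entries in that direction. The plot of differences by list shows them beside the middle of all entries.

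**Figure D4:**
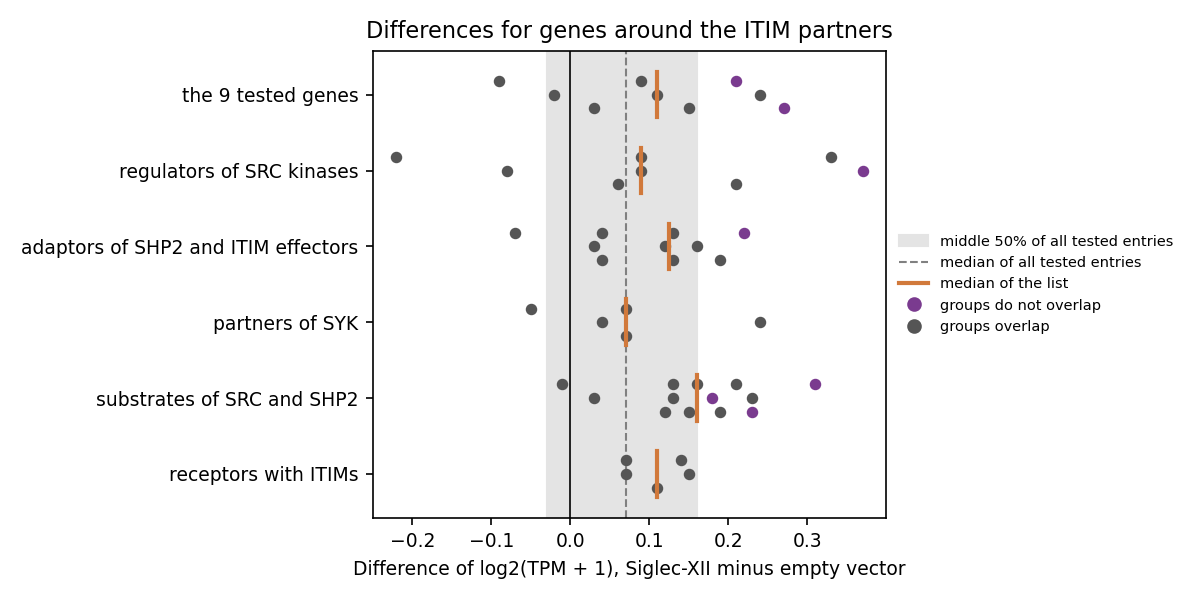
Difference of log2(TPM + 1), Siglec-XII minus empty vector, 1 point per tested gene, by list, with the median of each list in orange and the median (0.07) and middle 50% of all tested entries in grey. Most points of every list lie above 0, as most entries of the table do, and the substrates have the highest median, 0.16.

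Of 12 regulators of SRC kinases 8 were tested, 6 above and 2 below 0, with a median of 0.09. CBL, a ubiquitin ligase that marks active tyrosine kinases for destruction, came nearest to a call of all the listed genes. It went from 4.80 ± 0.08 to 5.16 ± 0.12 log2(TPM + 1), a difference of 0.37 (95% interval 0.21 to 0.53, adjusted p = 0.065), with no overlap between groups. It passed with a minimum mean of 5 TPM (adjusted p = 0.0425), without Siglec-XII replicate 2 (0.0482) and without empty vector replicate 2 (0.0485). Its relative CBLB, named after its values were seen as the 1 listed gene lower at an unadjusted p under 0.05, had a difference of -0.22 (adjusted p = 0.292). The phosphatases PTPN1, PTPN12 and PTPN2 were the most abundant of the list, at 43.5 to 102 TPM, with differences of 0.09, 0.09 and -0.08.

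Of 13 adaptors and effectors 10 were tested, 9 above and 1 below 0, with a median of 0.12. GAB2, a scaffold that recruits SHP-2, was at 148 to 176 TPM with a difference of 0.12 (adjusted p = 0.299), and GRB2, which ties scaffolds to RAS activation, was at 96.9 to 113 TPM with a difference of 0.04 (adjusted p = 0.771). FRS2, which docks SHP-2 behind fibroblast growth factor receptors, was the gene of this list with no overlap, at 47.0 to 63.7 TPM, with a difference of 0.22 (adjusted p = 0.138).

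Of 12 partners of SYK 5 were tested, 4 above and 1 below 0, with a median of 0.07, the same as that of all entries. PLCG1, the phospholipase downstream of receptor tyrosine kinases, was the most abundant, at 73.6 to 96.6 TPM, with a difference of 0.04. The exchange factors VAV2 and VAV3 each had a difference of 0.07.

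All 13 substrates of SRC and SHP-2 were tested, 12 above and 1 below 0, with a median of 0.16, and 8 of them were higher at an unadjusted p under 0.05. Over all entries 68.1% lay above 0, 13.9% were higher at that p and the median was 0.07. The other scalings bring that shift to 0.01 to 0.03, and the list was not tested against it. Its counts above 0 and at that p were not taken under those scalings. The list was chosen with earlier results of these data known, so an excess over all entries may come from that choice. SPRY2, an inhibitor of RAS signalling, differed by 0.31 (adjusted p = 0.147), CAV1, the coat protein of caveolae, by 0.23 (adjusted p = 0.151), and CTTN, an actin-binding SRC substrate, by 0.18 (adjusted p = 0.104), each with no overlap between groups. EZR, which links actin to the membrane, was the most abundant, at 545 to 685 TPM, with a difference of 0.16 (adjusted p = 0.211), and the adhesion protein PXN had a difference of 0.03.

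Of 24 other receptors with ITIMs only 5 were tested, all above 0, with a median of 0.11, and 18 were under 1 TPM in every sample. MPZL1, a widely made surface protein that binds SHP-2 through its ITIMs, was at 555 to 730 TPM, with a difference of 0.15 (adjusted p = 0.304). SIGLEC6 was at 119 to 151 TPM, with a difference of 0.11 (adjusted p = 0.548), and SIRPA, the receptor for CD47, at 15.1 to 19.4 TPM, with a difference of 0.14 (adjusted p = 0.354). The 24 receptors summed to 699 to 862 TPM with the empty vector and 840 to 907 TPM with Siglec-XII, in both groups less than SIGLEC12 alone in any Siglec-XII sample.

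Markers of the labelled cells and of others were read beside these results. Of 15 genes listed as intestinal epithelium markers 7 were at 1 TPM or more in all samples and 6 were under 1 TPM in all. The 7 were CDX1 at 128 to 165 TPM, CDX2 at 34.0 to 48.8 TPM, EPCAM at 527 to 585 TPM, CDH1, KRT8, KRT18 and KRT19. EPCAM, CDH1 and the keratins KRT8, KRT18 and KRT19 are not particular to intestine. KRT20, SI and FABP1, markers of differentiated enterocytes, were listed at 0 in all 8 samples. VIL1 was at 0.308 to 1.3 TPM, GPA33 at 0.168 to 1.35 TPM, and CDH17 did not pass 0.333 TPM. These low levels go against the labelled intestinal line, while those of CDX1 and CDX2 do not. How differentiated the cultures were is not stated in the methods of the study. The list summed to 8437 to 9412 TPM with the empty vector and 10031 to 10433 TPM with Siglec-XII, which did not overlap. How often comparable sums of other entries do not overlap was not tested. Of its 7 tested genes 0 passed the adjusted threshold in limma. At an unadjusted p under 0.05, 6 were higher, against 13.9% of all entries. In 3 of the 7 the groups did not overlap, all higher, against 9.17% of all entries. The part of these markers in the kinase differences was not tested. Most of the sums came from KRT8, KRT18 and KRT19, at means of 3903, 2947 and 987 TPM with the empty vector. With Siglec-XII their means were 4617, 3419 and 1078 TPM. The sums were not taken under the other scalings. Of 12 trophoblast markers 7 were at 1 TPM or more in all samples, led by GATA3 at 331 to 479 TPM and HSD3B1 at 316 to 370 TPM. The others of these 7 were KRT7, TFAP2C, TP63, TFAP2A and, at only 1.08 to 1.59 TPM, ERVW-1. The 2 under 1 TPM in all samples were ELF5 and GCM1. CGA at 0.127 to 1.35 TPM, PSG1 at 0.641 to 2.42 TPM and ERVFRD-1 at 0.546 to 2.48 TPM were low as well. The list summed to 1109 to 1261 TPM with the empty vector and 1162 to 1233 TPM with Siglec-XII, which overlapped. Of 10 blood cell markers none reached 1 TPM in all samples and 7 were under 1 TPM in all, with sums of 3.24 to 4.17 TPM with the empty vector and 2.99 to 5.35 TPM with Siglec-XII. PTPRC did not pass 0.076 TPM and TYROBP was listed at 0. CD14 was at 0.72 to 1.84 TPM, ITGB2 at 0.711 to 1.98 TPM and CORO1A at 0.41 to 1.13 TPM. In such bulk samples fewer cells of a type and less RNA per cell cannot be told apart.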

How the data were processed

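RNA from 4 empty vector and 4 Siglec-XII Caco-2 samples was sequenced as 100 bp paired reads. The labels name a stranded total RNA kit and the methods of the study a stranded mRNA kit. Per the submitters' processing notes the authors used kallisto 0.45.0 (the methods name another version, with hg19), and deposited log2(TPM + 1) per gene. Each column sums to 1000000 TPM once transformed back. TPM keeps no depth, so the count test named in the methods of the study could not be run, and precision was read from the spread between samples. TPM is a share, so a rise of abundant transcripts lowers all others.

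Groups came from the labels. Entries at 1 TPM or more in at least 4 samples were fitted in limma 3.58.1 (R 4.3.3, pseudocount 1, trended variance), with Benjamini-Hochberg adjustment over all 15590, a threshold of 0.05 and 95% intervals. SIGLEC12 was tested by exact permutation over 70 labellings. The fit was tested on simulated data with changes of 1 log2 unit. That is more than the difference of any of the 10 genes, so the test does not cover changes of their size. The genes and lists were chosen with earlier results of these data known. Named are the 10 genes, SIGLEC12, from each list genes with an adjusted p under 0.05, the 3 largest differences without overlap and the 3 most abundant, and markers and copies that reached 1 TPM or whose absence is the point. Alternative fits used 3 other scalings, a pseudocount of 0.1, every entry above 0, a mean of at least 5 TPM, no variance trend, a replicate block, or all samples but 1. Of 7 pseudogene copies of the genes sought by name 1 was found, YES1P1, at no more than 0.068 TPM. No amino acid sequences are given. An item withheld for evaluation is not reported here and was left out of the sums.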

Additional observations from a re-analysis of the deposited data

How the results depend on the processing

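In 144 values of the 9 tested genes under 16 alternatives, 137 kept their direction, 7 reversed and 0 passed the adjusted threshold. Adjusted p ranged from 0.0835 to 0.317 for LYN and from 0.105 to 0.378 for FYN. With single samples left out, PTPN6 ranged from -0.06 to 0.02, above 0 in the fits that lacked Siglec-XII replicate 3 (0.01), empty vector replicate 1 (0.02) or empty vector replicate 4 (0.01). SRC reversed to -0.03 under quantile normalization, -0.03 with equal upper quartiles, -0.01 with mitochondrially encoded and the 100 most abundant entries left out and -0.01 without Siglec-XII replicate 4, within a range of -0.01 to 0.08 over single samples left out. The count of all entries called, 101, went to 51 with no filter, where 39568 entries were tested, and to 54 without the trend in eBayes, and with single samples left out ranged from 49 (empty vector replicate 3 removed) to 159 (empty vector replicate 2 removed). Listed pathway genes called were 0, and 1 (CBL) with a mean of at least 5 TPM. Leaving out single samples gave 0 to 1. The cause of these changes was not tested. Same-numbered samples of the 2 groups had correlated deviations of 0.04, 0.028, -0.074 and 0.059, so the numbers were not taken to pair the samples. The fit with a replicate block called 69 entries and 0 of the 9 genes. INPP5D, tested only without the filter, had a difference of 0.01 (adjusted p = 0.858 in limma). With a pseudocount of 0.1 the SIGLEC12 difference was 13.20. The summed TPM of SRC, YES1, FYN and LYN under other scalings was added after seeing the data. Its difference of 22.6 TPM went to 11.9 after quantile normalization and 12.4 with equal upper quartiles. It was 22.4 with mitochondrially encoded and abundant entries left out and the rest rescaled to 1000000 TPM. The mean empty vector sum was then 339 TPM, against 231 TPM before, so 22.4 was a smaller part of it than 22.6.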
